A study of Mus musculus with 6 samples.

Results

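The genes for arginine use, nitric oxide, polyamine and itaconate synthesis were examined in bone marrow neutrophils that had met live Candida albicans. They are Slc7a2, Ass1, Nos2, Gch1, Arg1, Arg2, Odc1 and Acod1, chosen by name as 8 of the 54532 genes in the expression table. The study set out to learn how progranulin (PGRN), a secreted growth factor encoded by Grn, shapes the response of phagocytes to this fungus. Mice were of the C57BL/6J strain by the sample labels, with no age stated. Neutrophils from WT mice (n = 3 libraries) and from mice with a knockout of progranulin (PGRN KO, n = 3 libraries) were selected with anti-Ly-6G beads. Both groups were then cultured with Candida for 6 h at a yeast to neutrophil ratio that the labels and the publication give differently. There was no culture without Candida, so every value below is a level after challenge and not an induction by it. According to the methods, the PGRN KO mice and the WT mice were bought from different suppliers, so the colony and the genotype cannot be told apart. Nothing states that the 3 cultures of a genotype came from separate mice, and p-values then measure only the spread between these libraries.

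Arginine is a substrate over which several enzymes compete in phagocytes. The transporter CAT2 (Slc7a2) carries it into the cell, inducible nitric oxide synthase (Nos2) turns it into nitric oxide and citrulline with the cofactor tetrahydrobiopterin that GTP cyclohydrolase (Gch1) starts to make, and argininosuccinate synthetase (Ass1) begins the recycling of citrulline into arginine. The arginases, cytosolic Arg1 and mitochondrial Arg2, split the same arginine into urea and ornithine, from which ornithine decarboxylase (Odc1) makes putrescine, the first polyamine. Aconitate decarboxylase (Acod1, also called Irg1) sits apart in the mitochondria, where it diverts cis-aconitate from the citric acid cycle into itaconate, an inhibitor of succinate dehydrogenase and a mark of activated macrophages and neutrophils.

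The upstream sequences of the genes that were lower in PGRN KO are shown first, because the genes differ strongly in base composition there. RefSeq promoter windows on GRCm38.p6 were at hand for 4 of the 8 genes, namely Ass1, Odc1, Gch1 and Acod1. The stretches below run 5′ to 3′ on the strand of the gene, all of them the plus strand, and end at the base before the gene's start in the expression table. Capitals mark CG pairs.
Ass1, chr2:31470020-31470206: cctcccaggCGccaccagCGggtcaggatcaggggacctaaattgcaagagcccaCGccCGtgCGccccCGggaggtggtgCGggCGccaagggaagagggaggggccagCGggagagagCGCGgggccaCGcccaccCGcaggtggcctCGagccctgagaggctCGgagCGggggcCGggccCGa
Odc1, chr12:17544623-17544793: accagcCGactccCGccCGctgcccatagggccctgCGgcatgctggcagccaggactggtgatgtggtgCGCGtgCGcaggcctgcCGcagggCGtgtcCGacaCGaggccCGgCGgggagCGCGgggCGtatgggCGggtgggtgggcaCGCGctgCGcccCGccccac
Acod1, chr14:103046762-103046976: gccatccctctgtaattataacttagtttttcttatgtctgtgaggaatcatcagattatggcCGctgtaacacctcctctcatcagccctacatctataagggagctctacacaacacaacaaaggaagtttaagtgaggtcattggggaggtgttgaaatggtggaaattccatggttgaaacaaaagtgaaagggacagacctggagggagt

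In the 250 bases before the RefSeq start, Odc1 was 80.0% G and C with 35 CG pairs and Ass1 75.6% with 23. Gch1 was 59.2% with 17, and Acod1 was 44.4% with 2, against a median of 52.4% and 6 pairs over all 32851 windows. Of 7 motifs searched on both strands in windows of 250 bases before to 50 after the start, an E-box (CACGTG) was found in Ass1 alone among these 4 genes, 36 bases before the start, a motif that 7.15% of all windows held. The shorter core of the hypoxia response element (ACGTG, held by 19.6% of windows) lay within that same E-box and also in Acod1, 18 bases before its start. Both matches lie inside the gene as the expression table draws it, since its starts are upstream of the RefSeq starts. Each is given in 30 bases of the plus strand, with the matched letters in capitals.
Ass1, chr2:31470222-31470251: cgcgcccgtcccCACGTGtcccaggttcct
Acod1, chr14:103046982-103047011: tgtataaaggcaCACGTccactaaaggccc
The letters TTCNNNGAA (GAS, bound by STAT factors), TGANTCA (AP-1) and TTGCNNAA (C/EBP) were in none of the 4 windows, and were held by 8.30%, 7.81% and 10.8% of all windows. An ISRE (GAAA, any 2 bases and GAAA again, bound by interferon regulatory factors) and a kappaB site (GGG, any 2 bases and TTTCC) were not found in them either, and were held by 3.44% and 1.63% of all windows.

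The libraries held 17290604 to 17799798 fragments on genes in WT and 17087344 to 18821091 in PGRN KO. FPKM, the fragments per kilobase of gene scaled to a size set for each library, allowed levels to be compared between genes. That size was not the plain total of fragments on genes. The total was 1.034 to 1.039 times the size used in WT libraries and 0.946 to 0.957 times it in PGRN KO libraries. Grn itself (chromosome 11) was at 168.4, 161.3 and 166.1 FPKM in the WT libraries and at 0.242, 0.206 and 0.747 in the PGRN KO libraries, as the labels say. Of 11 neutrophil markers, 2 (Csf3r and Mmp8) were lower and none higher in PGRN KO, which turned to 2 higher and none lower with plain totals of fragments. Their summed level was 72232 to 76793 FPKM in WT and 73517 to 83532 in PGRN KO. Marker genes of other cell types or stages differed between the genotypes. All 5 promyelocyte markers (Elane the most abundant) were higher, with a sum of 128.7 to 143.8 FPKM in WT and 608.7 to 670.4 in PGRN KO. B and plasma cell markers (4 of 5 tested genes higher, led by Igkc) had a sum of 449.6 to 465.6 against 2183 to 2475 FPKM. Markers of basophils and mast cells (4 of 5 higher), eosinophils (3 of 4), erythroid cells (3 of 4), T and NK cells (1 of 3, with Cd3e and Cd3g at 0) and the cell cycle (6 of 7) were also higher where they passed. Among the 12 monocyte and macrophage markers, 7 could be tested, of which 1 (Ly6c2) was higher and 3 were lower. Their sum, mostly Ly6c2, was 524.4 to 531.1 FPKM in WT and 549.7 to 699.4 in PGRN KO, and without Ly6c2, left out after its values were seen, 125.1 to 128.5 against 103.3 to 117.7. Vsig4 was at 0 in every library and C1qa, C1qb and C1qc had at most 2 fragments in any. What these cells contribute to the 8 genes was not tested, and in bulk RNA fewer cells of a type and less RNA per cell cannot be told apart.

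All 8 genes were well above the limit of detection, with between 270 and 130179 fragments in a library. Acod1 was by far the highest in FPKM, at 2776 ± 117.7 (SD, n = 3) in WT, 13.8 times above Nos2, the next of the 8. Nos2 stood at 200.8 ± 8.63 FPKM and Arg2 at 124.5 ± 3.54 in WT. By the mean of all 6 libraries Acod1, Nos2 and Arg2 ranked 16, 241 and 431 among the 14807 genes tested. A lower tier held Gch1 (25.4 ± 0.537 FPKM in WT), Odc1 (21.6 ± 0.014), Ass1 (15.5 ± 1.53), Arg1 (13.9 ± 0.836) and Slc7a2 (7.19 ± 0.221). Only Ass1 and Arg1 overlapped as neighbours in this order in WT, with 13.9 to 17.0 and 13.1 to 14.7 FPKM. In PGRN KO the order was the same except that Ass1 (6.16 to 8.32 FPKM) fell below Arg1 (13.0 to 14.5), and no neighbours overlapped. The mitochondrial arginase was thus the main arginase transcript of these neutrophils in both genotypes.

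Genotypes were compared with limma on log2(FPKM + 1), a scale that understates the change of low genes. Of the 8 genes, 4 passed an adjusted p under 0.05, and all 4 (Ass1, Slc7a2, Acod1 and Odc1) were lower in PGRN KO, while Arg2, Nos2, Gch1 and Arg1 did not pass. Among all genes tested 17.9% passed, 7.94% being higher and 9.95% lower. Among genes with a mean of at least 1 FPKM, which all 8 reach, 25.6% passed and 14.5% were lower. The log2 fold change was below 0 for 8 of 8 genes, where 49.4% of all genes tested were, and the median was -0.20 against 0.0026 over all genes. That count depended on the scaling. The deposited values place PGRN KO lower than plain totals of fragments would, by 0.12 on the log2 scale. With plain totals 5 of the 8 were below 0, with Nos2, Gch1 and Arg1 then above 0. The median of the 8 was then -0.081, against 0.067 over all genes. The libraries of the genotypes did not overlap for 5 of the 8 genes, Arg2 being the fifth, where 37.7% of all genes tested did not overlap and 47.5% of those with at least 1 FPKM.

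**Figure D1:**
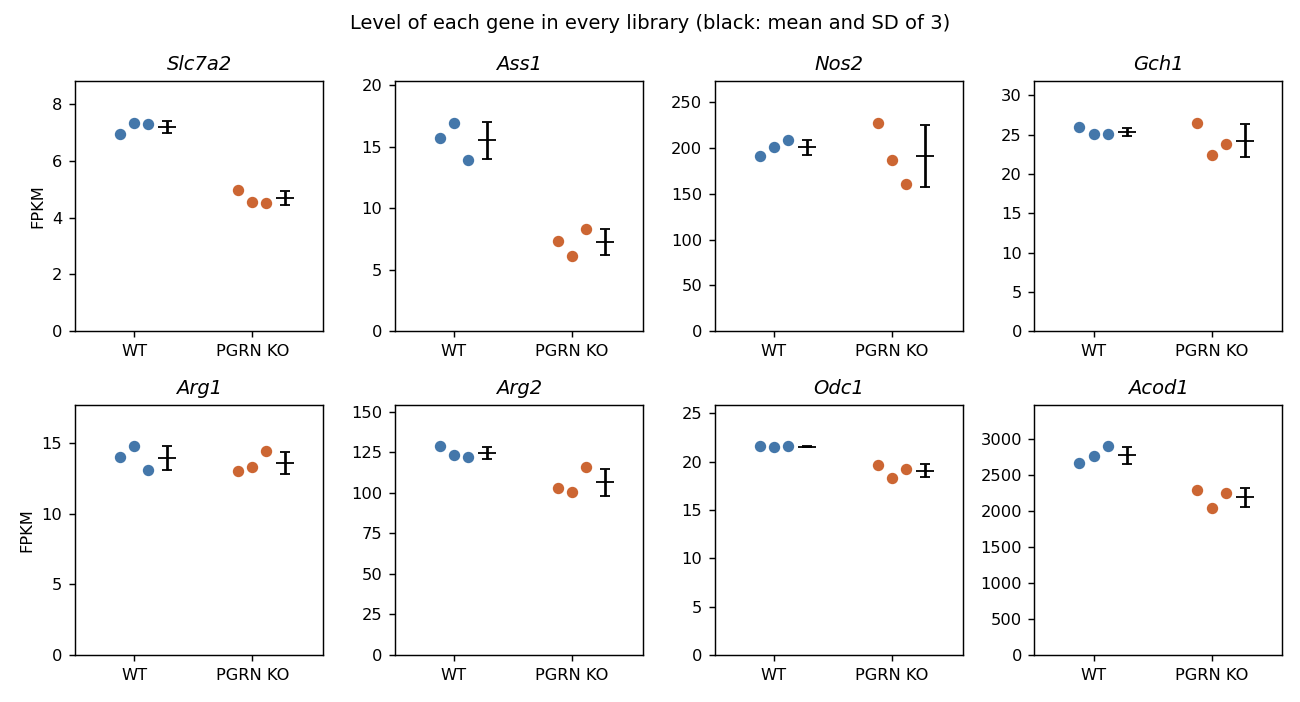
FPKM (vertical axes, starting at 0, a scale for each gene) of the 8 genes in the 3 WT (blue) and 3 PGRN KO (orange) libraries, each point being 1 library, with the mean and SD in black. Slc7a2, Ass1, Arg2, Odc1 and Acod1 separate the genotypes, while the libraries of Nos2, Gch1 and Arg1 overlap.

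The citrulline recycling enzyme changed most. Ass1 (ENSMUSG00000076441, chromosome 2, 31470207 to 31520672, plus strand) was at 15.7, 17.0 and 13.9 FPKM in the WT libraries and at 7.31, 6.16 and 8.32 in the PGRN KO libraries. Every PGRN KO library was below every WT library, and the PGRN KO mean was 46.8% of the WT mean. The log2 fold change was -1.003 (SE 0.11, adjusted p = 0.00239), the 56th lowest of 9249 genes with a mean of at least 1 FPKM. It rested on 1901 fragments in WT and 980 in PGRN KO. The adjusted p stayed at 0.0139 or below in all 16 other fits, with log2 fold changes of -1.09 to -0.89. Asl, which completes the recycling of citrulline after Ass1, was at 9.51 ± 0.342 FPKM (SD, n = 3) in WT against 9.12 ± 0.673 in PGRN KO and did not pass (log2 fold change -0.056, 95% confidence interval -0.21 to 0.097, adjusted p = 0.603).

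The arginine transporter fell as well. Slc7a2 (ENSMUSG00000031596, chromosome 8, 40862396 to 40922308, plus strand) was at 6.94, 7.34 and 7.30 FPKM in WT and at 4.96, 4.54 and 4.53 in PGRN KO. The genotypes were well apart, and the PGRN KO mean was 65.0% of that of WT. Its log2 fold change was -0.53 (SE 0.058, adjusted p = 0.00217), and it passed in all 16 other fits, with values between -0.62 and -0.43. Slc7a1, the related arginine transporter CAT1, was at a lower level, with 1.26 ± 0.110 FPKM in WT against 1.43 ± 0.245 in PGRN KO, and did not pass (log2 fold change 0.10, 95% confidence interval -0.12 to 0.32, adjusted p = 0.493).

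Acod1 (ENSMUSG00000022126, chromosome 14, 103046977 to 103056573, plus strand), the itaconate enzyme, lost the most FPKM of the 8. It was at 2663, 2766 and 2898 FPKM in WT and at 2285, 2041 and 2244 in PGRN KO. The lowest WT library was above the highest PGRN KO library, and the PGRN KO mean was 78.9% of WT. The log2 fold change was -0.34 (SE 0.061, adjusted p = 0.0116). With 369824 and 319901 fragments the counting error was at most 0.306%, so the precision was set by the spread between libraries, 4.24% in WT and 5.97% in PGRN KO. The call was lost with quantile normalization (log2 fold change -0.19, adjusted p = 0.124), without a filter on low values (adjusted p = 0.0505) and without WT replicate 2 (adjusted p = 0.0507).

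The polyamine enzyme Odc1 (ENSMUSG00000011179, chromosome 12, 17544794 to 17551505, plus strand) changed least among the genes called. It was at 21.6, 21.5 and 21.6 FPKM in WT and at 19.6, 18.3 and 19.2 in PGRN KO, so the genotypes did not overlap and the PGRN KO mean was 88.4% of WT. Its log2 fold change was -0.17 (SE 0.044, adjusted p = 0.0419). The WT libraries differed by only 0.065% (coefficient of variation), less than the 2.84% that counting 3727 fragments in 3 libraries would give on average. The call was lost in 9 of 16 other fits, among them plain totals of fragments (log2 fold change -0.056, adjusted p = 0.406), voom on fragments (adjusted p = 0.0568) and all fits without 1 library except the one without PGRN KO replicate 4.

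The arginases were measured next. Arg2 (ENSMUSG00000021125, chromosome 12, 79130777 to 79156301, plus strand) was at 128.5, 123.0 and 121.9 FPKM in WT and at 102.9, 100.3 and 116.1 in PGRN KO. The genotypes did not overlap, yet the log2 fold change of -0.23 (SE 0.062, adjusted p = 0.0502) lay just outside the threshold. It passed in 5 of 16 other fits, with voom at an adjusted p of 0.0115 and without PGRN KO replicate 6 at 0.0129, while with plain totals it was -0.11 (adjusted p = 0.26). The 3′ end of Arg2 overlaps Vti1b on the opposite strand, which had 4674 fragments over the 6 libraries against 17510 for Arg2, and no source used here says that counting used strand. Arg1 (ENSMUSG00000019987, chromosome 10, 24915221 to 24927484, minus strand) was at 14.0, 14.7 and 13.1 FPKM in WT and at 13.0, 13.3 and 14.5 in PGRN KO, with overlapping libraries and a log2 fold change of -0.034 (95% confidence interval -0.19 to 0.12, adjusted p = 0.761).

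Nitric oxide synthase and its cofactor enzyme did not pass. Nos2 (ENSMUSG00000020826, chromosome 11, 78920787 to 78960254, plus strand) was at 191.7, 201.7 and 208.9 FPKM in WT and at 227.7, 187.3 and 160.4 in PGRN KO. The PGRN KO libraries lay on both sides of the WT libraries, with a coefficient of variation of 17.7% against 4.30% in WT. The log2 fold change was -0.079 (95% confidence interval -0.37 to 0.21, adjusted p = 0.703), an interval that still holds changes larger than that of Odc1 or Arg2. Without PGRN KO replicate 6 the estimate was 0.041. Gch1 (ENSMUSG00000037580, chromosome 14, 47153895 to 47189413, minus strand) was at 25.98, 25.0 and 25.1 FPKM in WT and at 26.5, 22.4 and 23.9 in PGRN KO. These libraries overlapped, and its log2 fold change was -0.065 (95% confidence interval -0.22 to 0.093, adjusted p = 0.551). In PGRN KO, replicate 4 had the highest level of both Nos2 and Gch1.

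**Figure D2:**
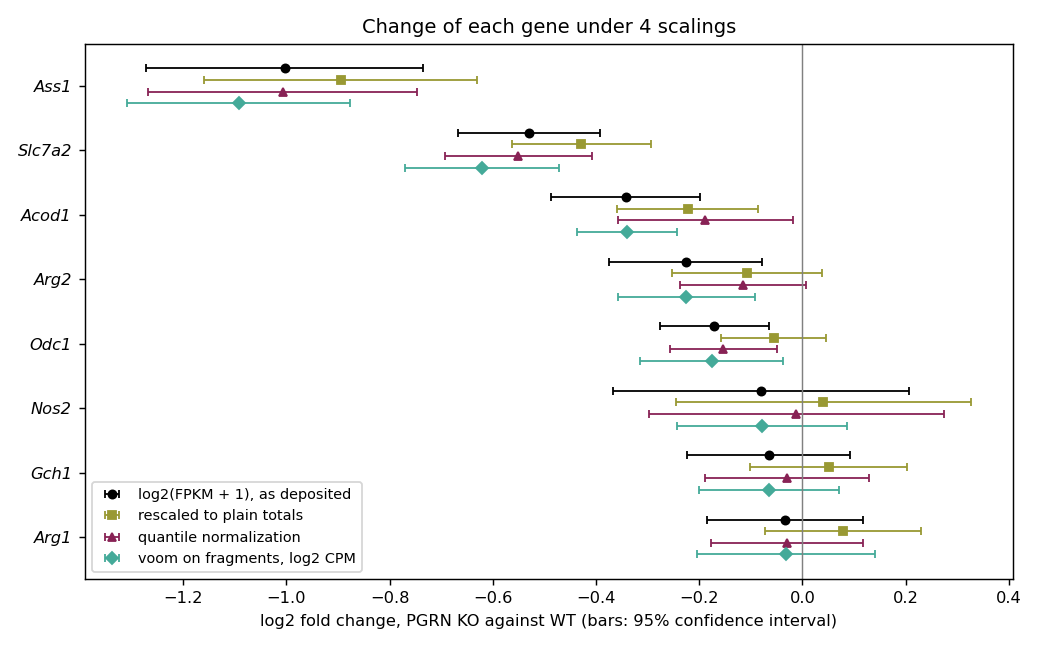
Log2 fold change of PGRN KO against WT (horizontal axis, below 0 meaning lower in PGRN KO) for the 8 genes under 4 scalings, with 95% confidence intervals not adjusted for the number of genes. The estimates of Ass1, Slc7a2, Acod1, Odc1 and Arg2 stay below 0 under each. Those of Nos2, Gch1 and Arg1 move to the other side of 0 with plain totals of fragments (0.040, 0.051 and 0.078).

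The ratio of transcripts inside a library depends little on how libraries are scaled, and was followed for the enzymes that share arginine. The log2 ratio of Nos2 to the sum of Arg1 and Arg2, on FPKM + 1, was 0.43, 0.55 and 0.63 in WT and 0.97, 0.72 and 0.30 in PGRN KO. The PGRN KO libraries spanned the WT range, with a difference of 0.13 (exact permutation test, two-sided, p = 0.6, adjusted p = 0.6 over 2 ratios). The log2 ratio of Acod1 to Nos2 was 3.79, 3.77 and 3.79 in WT and 3.32, 3.44 and 3.80 in PGRN KO. It held within an SD of 0.010 in WT and varied with an SD of 0.25 in PGRN KO, and the difference was -0.26, with PGRN KO replicate 6 above all 3 WT libraries and replicates 4 and 5 below them (exact permutation test, two-sided, p = 0.4, adjusted p = 0.6). With 3 libraries against 3 the smallest p that this test can give is 0.1.

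**Figure D3:**
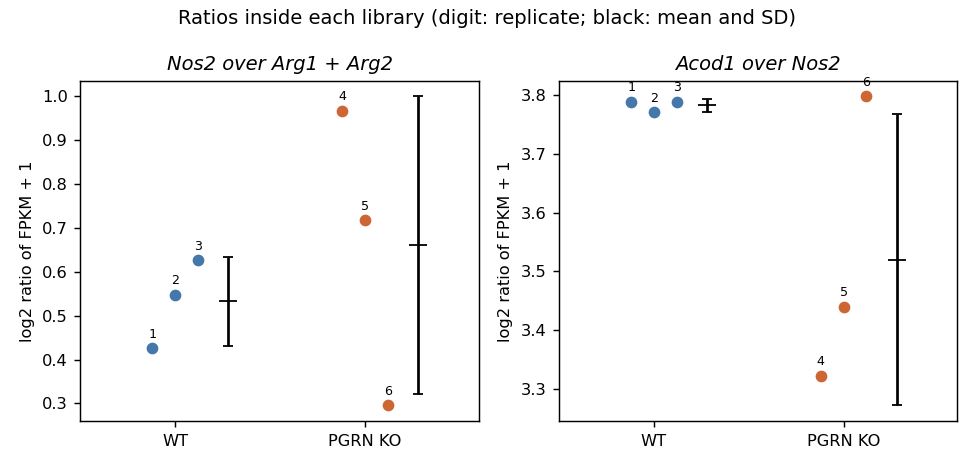
Log2 ratio of FPKM + 1 inside each library (vertical axes, not starting at 0) for Nos2 over both arginases and for Acod1 over Nos2, with points for libraries numbered by replicate and the mean and SD in black. The WT libraries lie close together, and the PGRN KO libraries 4, 5 and 6 are spread more widely in both panels.

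The genes around these enzymes were counted by role, in 6 lists with 76 genes of which 67 were tested. In PGRN KO 7 of them passed as higher and 8 as lower, which is 22.4% of those tested against 17.9% of all genes. The share among all genes with a mean of at least 1 FPKM, a level that not all of the 67 reach, was 25.6%. With plain totals of fragments 15 of the 67 were higher and 4 lower, where 2149 of all 14807 genes were higher and 934 lower. Among the 67, calls that held in all 16 other fits were those of Slc3a2, Gatm, Idh2, Irf1, Irf8 and Stat3.

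In arginine transport, 1 of 5 tested genes was lower and none higher. This was Slc3a2, the heavy chain shared by several amino acid transporters, at 331.5 ± 6.67 FPKM in WT against 245.1 ± 14.5 in PGRN KO (log2 fold change -0.44, adjusted p = 0.00287). Its partner Slc7a7, a light chain that exchanges cationic amino acids, had a log2 fold change of -0.33 and did not pass (adjusted p = 0.0564). Among 7 tested genes of the citrulline cycle, nitric oxide and tetrahydrobiopterin, 1 was higher. Qdpr, which regenerates the cofactor and is named after its values were seen, rose from 0.528 ± 0.0819 to 1.0 ± 0.0696 FPKM (log2 fold change 0.39, adjusted p = 0.0136), and it did not pass without WT replicate 2 (adjusted p = 0.0504). The other nitric oxide synthases were not measurable at this depth, with Nos1 at 0 in every library and Nos3 at 3 or fewer fragments in each.

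Ornithine, proline and creatine genes gave 1 call among 7 tested. Gatm, which uses arginine for the first step of creatine synthesis, rose from 13.2 ± 0.133 to 17.5 ± 0.928 FPKM (log2 fold change 0.38, adjusted p = 0.00459). Of 13 tested polyamine genes, 2 were lower and 1 higher. Smox, which oxidizes spermine, fell from 334.3 ± 6.60 to 270.6 ± 20.3 FPKM (log2 fold change -0.31, adjusted p = 0.0164). Azin1, the antizyme inhibitor that protects ornithine decarboxylase, fell from 26.5 ± 1.05 to 21.4 ± 1.34 FPKM (log2 fold change -0.30, adjusted p = 0.0175). With plain totals neither of these passed (adjusted p = 0.0755 and 0.0737). Each also lost its call in 3 of 6 fits without 1 library, which were WT replicate 1, WT replicate 2 and PGRN KO replicate 5 for Smox and WT replicate 1, WT replicate 3 and PGRN KO replicate 5 for Azin1. Eif5a, the translation factor that carries hypusine made from spermidine, rose from 99.9 ± 6.98 to 116.2 ± 1.92 FPKM (log2 fold change 0.22, adjusted p = 0.0429), a call lost in 6 of 6 fits without 1 library. The antizyme Oaz1, which marks ornithine decarboxylase for degradation, was at 172.4 ± 15.5 and 167.7 ± 11.8 FPKM and did not pass (adjusted p = 0.789).

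The list of aconitate and succinate steps around itaconate holds citric acid cycle enzymes but also carriers (Slc25a1, Slc25a10, Slc25a11), Clybl, Rab32, Hps1 and Hps4. Of its 22 tested genes, 4 were higher and none lower (10 and none with plain totals of fragments). Among all genes tested 17.9% passed, 7.94% being higher, and with plain totals 2149 of 14807 were higher and 934 lower. A log2 fold change above 0 was seen for 17 of the 22, with a median of 0.16, where 49.4% of all genes tested were below 0. With plain totals 20 of the 22 were above 0, in a fit where the median over all genes also rose, to 0.067. With quantile normalization 16 of the 22 were above 0. Higher genes were Idh2, the mitochondrial NADP-dependent isocitrate dehydrogenase (0.884 ± 0.137 to 1.74 ± 0.278 FPKM, log2 fold change 0.54, adjusted p = 0.0129), and Clybl, a lyase in the breakdown of itaconate (4.56 ± 0.355 to 6.14 ± 0.273 FPKM, log2 fold change 0.36, adjusted p = 0.014). Idh3g, a subunit of the NAD-dependent isocitrate dehydrogenase (log2 fold change 0.32, adjusted p = 0.0198), and citrate synthase, Cs (log2 fold change 0.16, adjusted p = 0.0481), were also higher, with Idh3g lost in 4 (WT replicates 1 and 3, PGRN KO replicates 5 and 6) and Cs in 6 of 6 fits without 1 library. Clybl was lost without PGRN KO replicate 5.

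Known regulators of the 8 genes gave 5 lower and no higher calls among 13 tested, with a median log2 fold change of -0.18. Lower calls made up 9.95% of all genes tested and 14.5% of those with a mean of at least 1 FPKM. With plain totals of fragments 3 of the regulators were lower and 1 higher, where 934 of all 14807 genes were lower and 2149 higher. Irf1, an interferon regulatory factor required for Nos2 induction in macrophages, fell from 30.3 ± 1.53 to 23.5 ± 0.853 FPKM (log2 fold change -0.35, adjusted p = 0.00756). Irf8 fell from 3.09 ± 0.148 to 2.13 ± 0.138 FPKM (log2 fold change -0.39, adjusted p = 0.0108) and Stat3 from 37.2 ± 0.697 to 29.0 ± 1.53 FPKM (log2 fold change -0.35, adjusted p = 0.00561). Stat3 lies on chromosome 11 (100885098 to 100939540), which also holds Grn (102430315 to 102437048). Whether this position bears on the level of Stat3 was not tested. Il4ra, the interleukin-4 receptor chain, had a log2 fold change of -0.33 (adjusted p = 0.0367) and Stat6, its downstream factor and named after its values were seen, -0.18 (adjusted p = 0.0281). With plain totals these last calls were lost (adjusted p = 0.111 and 0.373). Il4ra was not called in 9 of 16 other fits, among them all without 1 library except that without PGRN KO replicate 4. Stat6 was not called in 7 of 16, among them those without WT replicate 2 or 3 and without PGRN KO replicate 4 or 5. Cebpb, a factor that acts on Arg1, was at 1578 ± 75.6 FPKM in WT against 1301 ± 193.2 in PGRN KO and did not pass (adjusted p = 0.11).

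**Figure D4:**
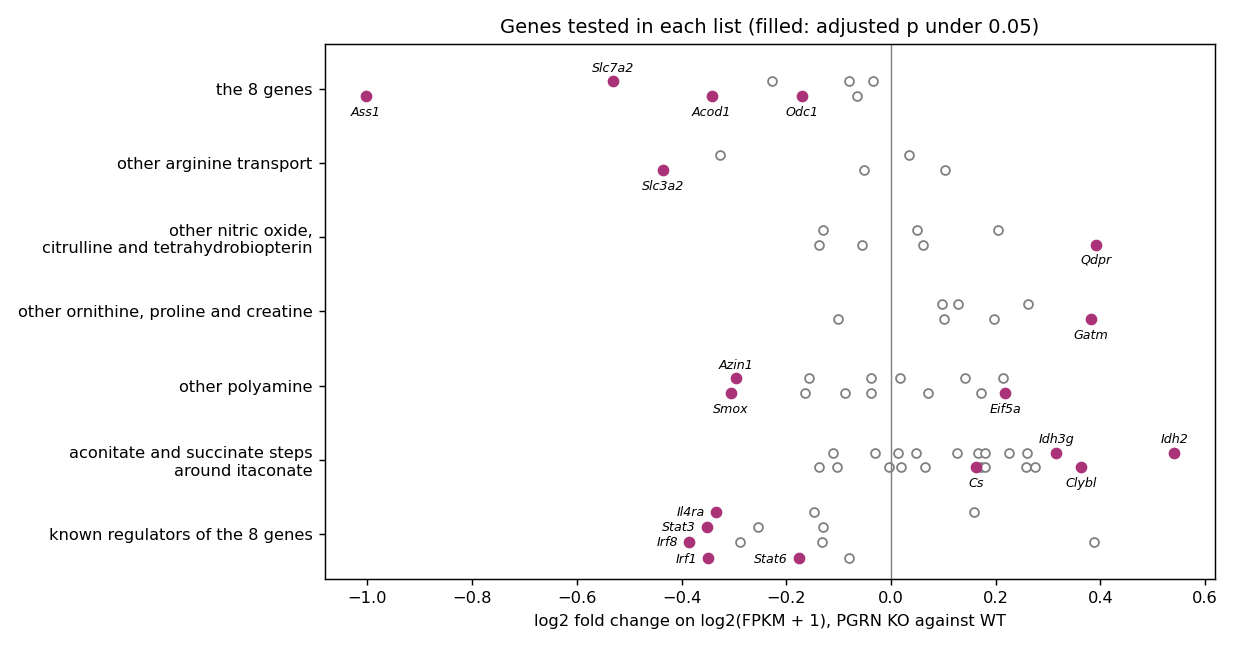
Log2 fold change of PGRN KO against WT on log2(FPKM + 1) (horizontal axis) for each tested gene, with a row for the 8 genes and for each list of other genes; filled points have an adjusted p under 0.05 and carry their symbol, and vertical offsets within a row have no meaning. The 8 genes lie below 0 here, 3 of which do not with plain totals of fragments, and 17 of 22 genes around itaconate lie above 0.

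Genes whose log2(FPKM + 1) followed these genes most closely over the 6 libraries were sought among 9248 genes with a mean of at least 1 FPKM. The 6 points share the division by genotype. The highest r among 9248 genes over 6 points can also be large by selection alone, so r is a description only. For Ass1 they were Ubl3, Zfand2a and Tatdn2 (Pearson r of 0.999, 0.998 and 0.996), for Slc7a2 Papd5, Mreg and Tnfrsf8 (r of at least 0.998), and for Acod1 Zc3h12c, Ube2q2 and Fam13b (r of at least 0.998). Odc1 was followed by Fam49a, Srsf2 and Rnf149 (0.997, 0.997 and 0.996) and Arg2 by Fbxo34, Psmd8 and Dhx8 (0.993, 0.993 and 0.991). The genes that did not separate the genotypes had Ptpn23, Ncdn and N4bp1 for Nos2 (0.976, 0.969 and 0.965), Rpl7a, Map3k8 and Thap7 for Gch1 (0.987, 0.986 and 0.969) and 2310015A10Rik, Rab2a and Sh3glb2 for Arg1 (0.985, 0.974 and 0.969).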

How the data were processed

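RNA of 6 neutrophil cultures, 3 WT and 3 PGRN KO, grouped by the titles of the samples, was analysed. The authors discarded adapter and low-quality reads before mapping with HISAT, and deposited a table of FPKM for 54532 genes. The methods name HTSeq for counting, and the submitters' processing notes name HISAT2 2.0.5, featureCounts 1.5.0-p3, DESeq2 1.20.0 and the builds mm10 and GRCm38. FPKM times gene length, multiplied by a library size recovered from the steps of the low values, gave whole fragments within 0.05 for all values above 0. From the FPKM, log2(FPKM + 1) was compared with limma 3.58.1 (lmFit, eBayes with trend) in R 4.3.3 over 14807 genes with a mean of at least 0.1, two-sided, with Benjamini-Hochberg adjustment over all of them. All adjusted p-values of genes are from this test or, where named, from an alternative fit across all genes. The fit was also run on counts simulated with the same spread beyond counting for every gene, which these libraries need not have. Ratios were compared by exact permutation in Python 3.11.15 with scipy 1.17.1.

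The 8 genes, the lists of other genes and the markers were chosen with earlier results of these data known, and no test is adjusted over a list alone. Named were the 8 genes, Grn, and in each list up to 4 called genes with a mean of at least 1 FPKM and the largest change, and the 3 genes most correlated with each of the 8. Other genes named with values that did not pass were chosen after their values were seen. Pycr3 is listed as Pycrl. Replicate pairs of a genotype differed by more than sampling noise (chi-square over its degrees of freedom 2.83 or more). Motifs were searched in RefSeq promoter windows of GRCm38.p6. The alternatives were other pseudocounts (0.1 and 0.5), filters, scalings and variance models, voom with trimmed-mean scaling, and leaving out each library.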

Additional observations from a re-analysis of the deposited data

How the results depend on the processing

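Ass1 and Slc7a2 kept their direction and call in all 16 alternatives. With plain totals of fragments Nos2 was at 0.040, Gch1 at 0.051 and Arg1 at 0.078 (log2 fold change, none called), and Odc1 lost its call at -0.056. Odc1 also lost it with quantile normalization (-0.15), without the variance trend (-0.17) and with voom (-0.18), and Acod1 lost it without a filter (-0.34) and with quantile normalization (-0.19). Arg2 gained a call with pseudocounts of 0.1 and 0.5 and a minimum mean of 1 FPKM (-0.23 each) and with voom (-0.22). Quantile normalization left 2 of the 8 genes called, and voom called 24 of the other genes. Over all genes tested, quantile normalization called 2542 and voom 3626, against 2648 as reported. The cause of these shifts was not tested.

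Without 1 library at a time, log2 fold changes ranged from -1.09 to -0.90 for Ass1, -0.57 to -0.51 for Slc7a2, -0.37 to -0.29 for Acod1, -0.19 to -0.14 for Odc1, -0.29 to -0.19 for Arg2, -0.21 to 0.041 for Nos2, -0.13 to -0.011 for Gch1 and -0.077 to 0.0049 for Arg1, positive only without PGRN KO replicate 6 (Nos2) and WT replicate 2 (Arg1). Between 2 (without WT replicate 2) and 4 of the 8 genes were called, 7 (without PGRN KO replicate 5) to 14 of the other genes, with 9 without WT replicate 1 or 2, and 1385 (without PGRN KO replicate 5) to 2229 of all genes, against 2648 as reported; WT replicates 1, 2 and 3 left out gave 1682, 1456 and 1749. The difference in the log2 ratio of Nos2 to the arginases ranged from -0.027 (without PGRN KO replicate 4) to 0.31, and that of Acod1 to Nos2 from -0.40 to -0.16. No paired analysis was possible because the genotypes share no replicate numbers. Depth limits Ass1 most, with a counting error of 5.53% in PGRN KO.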

Other observations

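The spread between libraries of a genotype was compared gene by gene. The coefficient of variation was higher in PGRN KO than in WT for 7 of the 8 genes, the exception being Arg1 (6.00% in WT and 5.62% in PGRN KO), where 56.9% of 9249 genes with a mean of at least 1 FPKM had the higher value in PGRN KO. In percentage points it was widest apart for Nos2 (4.30% and 17.7%) and Gch1 (2.12% and 8.68%), and as a ratio for Odc1 (0.065% and 3.63%). Nos2 and Gch1 had counting errors of at most 1.93% in both genotypes. The median over the 9249 genes was 6.39% in WT and 7.57% in PGRN KO. No test was made of this difference, which was noticed in the values.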
